A study of Homo sapiens with 3 samples.

Results

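Cells store iron inside ferritin, a protein shell built from heavy and light chains, and take it up by binding transferrin at the transferrin receptor. A pair of iron regulatory proteins adjusts both arms after transcription. When iron is scarce they bind stem-loops called iron-responsive elements (IREs), which blocks translation of the ferritin mRNAs, whose element lies near the 5′ end, and slows decay of the transferrin receptor mRNA, whose elements lie in the 3′ untranslated region. When iron is needed, the cargo receptor NCOA4 carries ferritin to the lysosome, where the iron is released. The 6 genes described here are the ferritin chains FTH1 and FTL, the receptor gene TFRC, the ferritin cargo receptor gene NCOA4, and IREB2 and ACO1, which encode the iron regulatory proteins IRP2 and IRP1. They were chosen by name, with earlier results of these data known, and all 6 had a row among the 17595 endogenous genes of the deposited count table. RNA levels were measured, and the binding of IRPs, translation and protein were not.

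The table holds 3 libraries of 1 group, HEK293 cells, an established human line from embryonic kidney, grown in DMEM with glutamine and 10% fetal calf serum. The labels name no iron treatment, chelator, genotype or second condition, so what can be compared is one gene with another in the same library, and one library with another. For each library 1000 cells were lysed with spiked control RNA, and the material of 100 of them went through 18 cycles of PCR. RNA was tagged at its 5′ end, so a transcript offers 1 end to tag whatever its length. Levels are counts per 1000000 endogenous counts (CPM) of such tags. Whether copies of a tag made by PCR were collapsed is not known. Libraries carry the numbers of their columns, 20, 21 and 23, which no label matches to a replicate. Nothing in the labels says that the libraries came from separate cultures, so p-values speak for these 3 samples alone, and the spread between them may be technical. The exact binomial test between libraries covers counting error only, and the limma test of ratios pools the spread over all tested genes.

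Endogenous totals lay between 1330877 and 1545594 counts, so that 1 count equals 0.647 to 0.751 CPM, and spikes took 3.49% to 3.85% of all counts. All 6 marker genes fixed for the HEK293 line were listed, at 21.1 CPM (KRT8) to 340.1 CPM (VIM). Of 14 markers of erythroid, liver, immune, endothelial and fibroblast cells, 6 were listed, with 38 counts in all libraries together and no marker above 3.92 CPM. The hemoglobin gene HBA1 had 0, 4 and 2 counts in libraries 20, 21 and 23, and HBB had no row.

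The elements through which iron acts on these RNAs are shown first, because the search found them in the transcripts of FTL and TFRC and not in those of NCOA4, IREB2 and ACO1. The transcripts of GENCODE v29 (GRCh38) were searched on the sense strand for a C, any 5 bases, the loop CAGTGN and 5 bases that pair with those before the loop, allowing G to pair with T. Each site is printed 5′ to 3′ in DNA letters with the loop of 6 bases in capitals. The FTL site lies in the 5′ untranslated region at chr19:48965336-48965362 on the plus strand, from base 36 of the transcript. The 4 TFRC sites lie in the 3′ untranslated region, on the minus strand at chr3:196050980-196051006, chr3:196050576-196050602, chr3:196050511-196050537 and chr3:196050464-196050490.
FTL: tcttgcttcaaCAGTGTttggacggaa
TFRC site 1: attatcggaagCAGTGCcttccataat
TFRC site 2: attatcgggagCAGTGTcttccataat
TFRC site 3: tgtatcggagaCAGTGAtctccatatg
TFRC site 4: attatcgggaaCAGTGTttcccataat
The search fixed every base of the loop but the last. The same search found no match in the longest coding transcripts of NCOA4, IREB2 and ACO1. Among the longest coding transcripts of 18898 genes, 1.29% held at least 1 match, and TFRC was the 1 gene with as many as 4. Of 1645 transcripts within 10% of the length of TFRC, 1.40% held a match, and of 529 within 10% of the length of FTL, 0.378% did. In the RefSeq windows from 250 bases before to 50 bases after a gene's start (GRCh38.p14), 0.105% of 35116 windows held the motif on the sense strand and 0.216% on either strand; 5 of the 6 genes had windows there, and of their 7 windows the 1 of FTL held it. FTH1 had no window, and no result of the transcript search is given for it, so nothing is shown here about an element in FTH1.

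The ferritin chains were far above the other iron genes. FTH1, the heavy chain with the ferroxidase activity that oxidizes incoming iron, had 2036, 1955 and 2204 counts in libraries 20, 21 and 23, which is 1425 ± 44.7 CPM (SD, n = 3). FTL, the light chain that aids the build-up of the mineral core, had 1719, 1586 and 1701 counts, or 1152 ± 46.8 CPM (SD, n = 3). FTH1 stood at rank 110 and FTL at rank 141 of all listed genes, at the 99.4th and 99.2nd percentiles. In every library FTH1 exceeded FTL, and the ranges of both genes in CPM did not overlap. FTH1 made up 54.2% of the ferritin counts in library 20 (95% exact interval 52.6 to 55.8), 55.2% in library 21 (53.6 to 56.9) and 56.4% in library 23 (54.9 to 58.0). The share averaged 55.3% ± 1.11 (SD, n = 3).

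Tags assigned to ferritin copies other than the parent genes were almost absent. GENCODE v29 names 42 ferritin pseudogenes and ferritin-like genes, 26 after the heavy and 16 after the light chain, and 1 of them had a row, FTH1P15 with 1 count in library 20. FTMT, the mitochondrial ferritin, had no row. Which annotation the authors counted on is not known, so a gene without a row may have been missing from it. How the authors treated reads that map to several places is not given in the sources used here, and a part of the tags of FTH1 and FTL could come from copies or be missing because of them. BEST1, which overlaps FTH1 on the opposite strand, had 2, 0 and 3 counts in libraries 20, 21 and 23.

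TFRC and NCOA4, which serve iron entry and ferritin breakdown, had close levels. TFRC had 155, 134 and 171 counts in libraries 20, 21 and 23, or 105 ± 4.99 CPM (SD, n = 3), rank 1654 and the 90.6th percentile. NCOA4 had 124, 129 and 127 counts, or 87.7 ± 8.04 CPM (SD, n = 3), rank 1908 and the 89.2nd percentile. The lowest TFRC value, 100.7 CPM in library 21, lay just above the highest NCOA4 value, 96.9 CPM in the same library. Library 21 was thus the lowest of the libraries for TFRC and the highest for NCOA4.

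The iron regulatory proteins had the lowest RNA levels of the 6. IREB2 encodes IRP2, which is degraded in iron-replete cells, and it had 63, 69 and 100 counts in libraries 20, 21 and 23, or 53.1 ± 11.1 CPM (SD, n = 3), rank 2872 and the 83.7th percentile. ACO1 encodes IRP1, which works as cytosolic aconitase when it holds an iron-sulfur cluster, and it had 42, 44 and 36 counts, or 28.3 ± 4.89 CPM (SD, n = 3), rank 4528 and the 74.3rd percentile. Library 23 was the highest for IREB2 and the lowest for ACO1. IREB2 made up 60.0% of the IRP counts in library 20 (95% exact interval 49.98 to 69.4), 61.1% in library 21 (51.4 to 70.1) and 73.5% in library 23 (65.3 to 80.7), and the interval of library 20 reaches to even shares. The median of the 11424 genes with at least 10 pooled counts was 19.6 CPM, below all 6 genes.

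**Figure D1:**
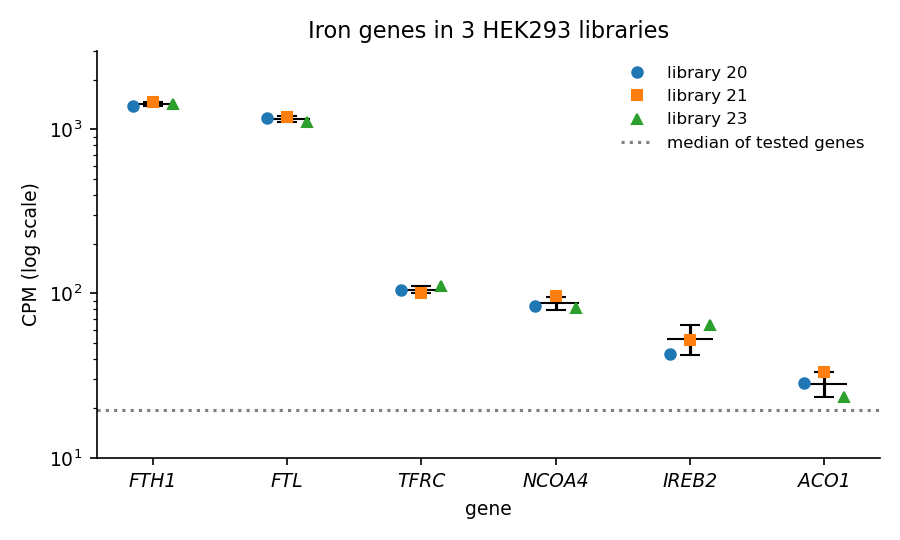
Level of each iron gene in CPM (log scale) in libraries 20, 21 and 23, with a dash and bar for the mean and SD (n = 3) and a dotted line at 19.6 CPM, the median of tested genes. The ferritin chains sit above 1000 CPM, TFRC and NCOA4 near 100 CPM, and IREB2 and ACO1 below them.

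The spread between libraries was near counting error for NCOA4 and ACO1, below it for TFRC and above it for FTH1, FTL and IREB2. The coefficient of variation over libraries was 3.14% for FTH1, 4.06% for FTL, 4.73% for TFRC and 9.17% for NCOA4, against 2.20%, 2.45%, 8.08% and 8.89% from counting alone. For IREB2 it was 20.8% against 11.4% from counting, and for ACO1 17.3% against 15.7%. None of the 6 genes passed between any pair of libraries in the exact binomial test adjusted by Benjamini-Hochberg across every gene and pair, in which 0.56% of 11424 genes passed. At an unadjusted exact p under 0.05, FTH1, FTL and IREB2, 3 of the 6, passed in some pair, against 15.9% of all genes. That share is not at like depth, since the median tested gene had 19.6 CPM, below all 6. The chi-square test likewise called 0 of the 6 after adjustment. The lowest unadjusted exact p was that of IREB2, whose level was lower in library 20 than in library 23 by a log2 ratio of -0.60 (unadjusted exact p = 0.00963, adjusted p = 0.475).

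Set against each other within a library, the 6 genes kept the order FTH1, FTL, TFRC, NCOA4, IREB2, ACO1 in CPM in each of the 3 libraries. All 15 pairs passed limma's moderated test of the log2 ratio of counts, with adjustment over all tested genes at 0.05. This says little about these genes in particular, since 99.9% of 11423 genes passed against FTL and against FTH1, 96.8% against TFRC, 95.4% against NCOA4, 87.6% against IREB2 and 82.2% against ACO1. FTH1 was 1 of only 1.16% of genes that were higher than FTL, and FTL was among the 99% that were lower than FTH1, with 0.902% higher. The sizes of the ratios carry the comparison. The less counted gene of each pair was the denominator, and intervals and p-values depend on that choice. For FTH1 and IREB2 the SE of the log2 ratio was 0.24 with IREB2 as denominator and 0.11 with FTH1. For FTH1 and FTL it was 0.036 with FTL as denominator and 0.045 with FTH1. The fit pools the spread over all genes, which share the denominator. An ordinary one-sample t test without variance moderation, chosen after seeing the data, gave each ratio only its own spread over the 3 libraries. By that test 12 of the 15 pairs passed. The share of all genes that passed it was not computed, so this count says nothing about these genes in particular. Not passing were NCOA4 over IREB2 (t test adjusted p = 0.0808), IREB2 over ACO1 (t test adjusted p = 0.116) and TFRC over NCOA4 (t test adjusted p = 0.144).

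Within the ferritin pair the heavy chain led by a small margin. FTH1 exceeded FTL by a log2 ratio of 0.24, 0.30 and 0.37 in libraries 20, 21 and 23, a mean of 0.31 ± 0.036 (SE, limma adjusted p = 7.43e-11) and a ratio of 1.24 (95% interval 1.18 to 1.30). With only its own spread over the 3 libraries, the adjusted p was 0.0147 (ordinary one-sample t test without variance moderation, chosen after seeing the data). When counts were divided by transcript length the log2 ratio was 0.080 (limma adjusted p = 0.0528). A transcript offers 1 end to tag whatever its length, so a value per length is not a transcript level. The median length of the coding transcripts was 1027 bases for FTH1 and 878 bases for FTL.

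Each ferritin chain was higher than the receptor TFRC in 3 of 3 libraries. FTH1 exceeded TFRC by a log2 ratio of 3.75 ± 0.065 (SE), 13.5-fold with a 95% interval of 12.3 to 14.7, and FTL exceeded TFRC by 3.45 ± 0.065, 10.9-fold with an interval of 9.97 to 11.9. The summed ferritin chains were 24.2, 26.4 and 22.8 times TFRC in libraries 20, 21 and 23. Against NCOA4, which binds the heavy chain in the ferritin shell, FTH1 stood 16.2-fold higher (14.3 to 18.4) and the summed chains were 30.3, 27.4 and 30.7 times as high in libraries 20, 21 and 23.

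The distance to the regulators was wider. FTH1 exceeded IREB2 27.1-fold (95% interval 19.5 to 37.6) and ACO1 50.3-fold (39.4 to 64.1), and FTL exceeded IREB2 21.9-fold (15.8 to 30.3) and ACO1 40.7-fold (31.9 to 51.9). The summed ferritin chains were 35.8, 31.3 and 28.7 times the summed IRP genes in libraries 20, 21 and 23. The 6 genes summed to 0.285% ± 0.0079 of the endogenous total (SD, n = 3). Of their tags 90.4% ± 0.363 belonged to the ferritin chains, 3.70% ± 0.263 to TFRC, 3.07% ± 0.195 to NCOA4 and 2.85% ± 0.30 to the IRP genes.

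TFRC, a main target of the IRPs, exceeded each regulator. The log2 ratio was 1.01 ± 0.22 over IREB2 (SE, limma adjusted p = 8.80e-06), which is 2.01-fold, and 1.90 ± 0.20 over ACO1 (limma adjusted p = 3.82e-20), which is 3.73-fold. TFRC was 1.48, 1.19 and 1.26 times the sum of both IRP genes in libraries 20, 21 and 23. NCOA4 exceeded IREB2 1.67-fold (95% interval 1.23 to 2.25) and ACO1 3.10-fold (2.35 to 4.10). Without library 21 the calls of TFRC over IREB2 (log2 ratio 1.03, limma adjusted p = 0.0560) and of NCOA4 over IREB2 (0.66, limma adjusted p = 0.216) were lost. NCOA4 was 1.18 and 1.14 times the summed IRP genes in libraries 20 and 21 but 0.934 times in library 23, so their order is not settled.

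The closest pairs depended most on how the ratio was handled. IREB2 exceeded ACO1 by a log2 ratio of 0.58, 0.64 and 1.46 in libraries 20, 21 and 23, with a mean of 0.89 ± 0.22 (SE, limma adjusted p = 5.46e-05), and without library 23 the mean was 0.61 (limma adjusted p = 0.00125). Per length of transcript the log2 ratio of IREB2 over ACO1 was 0.32 and the call was lost (limma adjusted p = 0.203). That value depends on the length taken. The median coding transcript was longer for IREB2 (5375 against 3618 bases), but the longest one was longer for ACO1 (7466 against 6354 bases). TFRC exceeded NCOA4 by 0.32, 0.05 and 0.43, with a mean of 0.27 ± 0.12 (SE, limma adjusted p = 0.0290). The call of TFRC over NCOA4 was lost without library 20 (0.24, limma adjusted p = 0.215) and without library 23 (0.19, limma adjusted p = 0.262). Division by length put NCOA4 higher, with a log2 ratio of TFRC over NCOA4 of -0.82. With tags taken at the 5′ end, such values are not transcript levels.

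**Figure D2:**
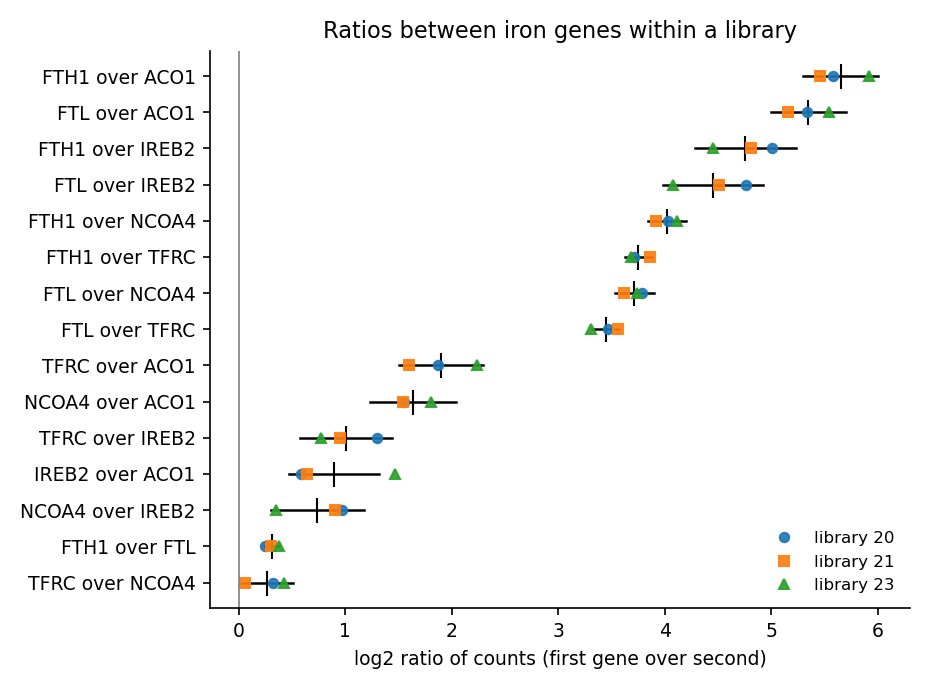
Log2 ratio of counts for the 15 pairs, with 1 symbol per library, a tick at the mean and a line for the 95% interval of the limma fit. Ratios of a ferritin chain to another gene lie between 3.45 and 5.65, and those of TFRC over NCOA4 and FTH1 over FTL lie nearest to 0.

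**Figure D3:**
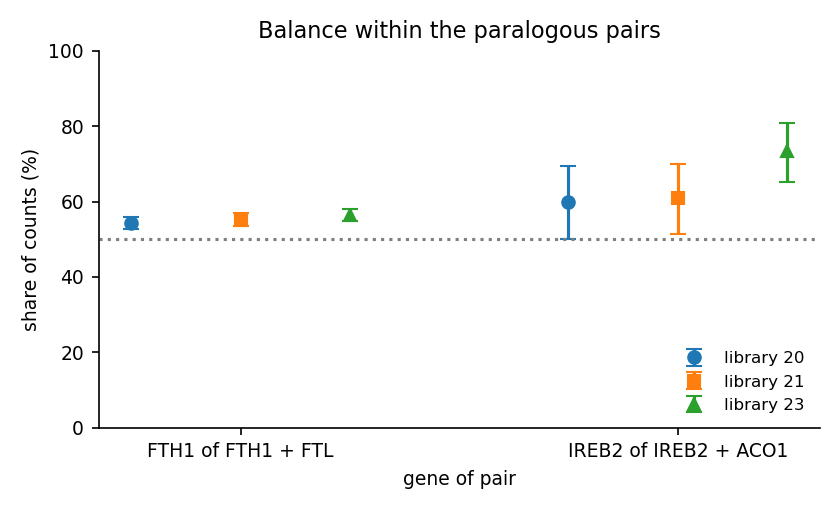
Share of FTH1 in the counts of both ferritin chains and of IREB2 in the counts of both IRP genes, in percent, in libraries 20, 21 and 23 with 95% exact binomial intervals and a dotted line at 50%. The FTH1 shares lie between 54.2% and 56.4%, while the IREB2 shares lie between 60.0% and 73.5% with wide intervals.

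The ferritin RNAs were also the shortest of the 6, and level fell with transcript length over all genes; the part of length in the ratios was not tested. Median coding transcripts were 878 and 1027 bases for FTL and FTH1, 2371 for NCOA4, 3618 for ACO1, 5032 for TFRC and 5375 for IREB2. Among tested genes the median level was 70.1 CPM for transcripts of at most 1000 bases and 14.0 CPM for those over 5000 bases. Within its own length class FTH1 stood at the 98.2nd percentile, TFRC at the 95.97th, FTL at the 91.6th, IREB2 at the 89.4th, NCOA4 at the 85.3rd and ACO1 at the 65.4th. TFRC thus stood higher within its class than FTL within its own. These percentiles depend on where the classes are cut. FTH1, with 1027 bases, fell just past the cut at 1000 bases, into a class with a median of 39.2 CPM. The class of FTL had a median of 70.1 CPM. Per kilobase of transcript, a scale that 5′ tags do not need, the levels were 1387 CPM per kb for FTH1 and 1312 for FTL. They were 37.0 for NCOA4, 20.96 for TFRC, 9.88 for IREB2 and 7.81 for ACO1.

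**Figure D4:**
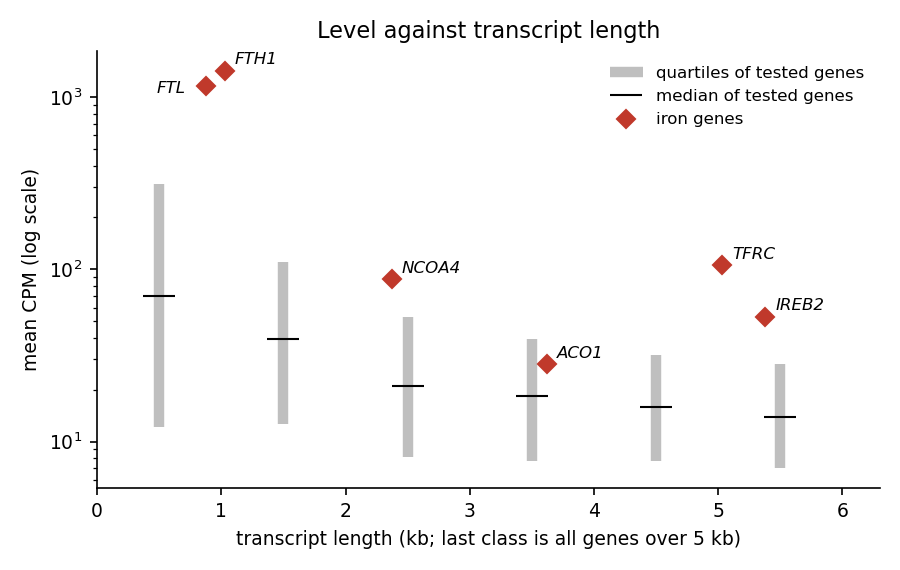
Mean CPM (log scale) of the 6 iron genes against transcript length in kb, with grey bars for the quartiles and dashes for the median of tested genes in each length class. Class medians fall from 70.1 to 14.0 CPM with length, and TFRC and IREB2 lie above the upper quartile of the longest class.

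Scaled to the spikes, for which the labels give 20000 molecules per cell, the tags came to 746 ± 37.5 per cell for FTH1, 602 ± 6.55 for FTL, 55.3 ± 5.46 for TFRC, 45.8 ± 2.44 for NCOA4, 27.9 ± 7.02 for IREB2 and 14.7 ± 1.82 for ACO1 (SD, n = 3). These estimates take spikes and cellular RNAs to be captured alike, which was not tested. The genes nearest to each in level over the 3 libraries, by Euclidean distance of log2(CPM + 1), were C1QBP and PFN1 for FTH1, SOD1 and APRT for FTL, BBX and ICT1 for TFRC, NRAS and EIF3A for NCOA4, CKAP4 and HNRNPA0 for IREB2, and RNF216 and HAUS2 for ACO1. The distances ran from 0, for RNF216 with the same 42, 44 and 36 counts as ACO1, to 0.0817 for HAUS2. With 1 condition this likeness is one of level.

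Genes that handle iron around these 6 were mostly lower. The 9 lists of iron genes hold 63 genes, of which 53 had a row. In the uptake list, all 7 other genes tested were lower than TFRC, as were 84% of all genes; the next were the metal transporters SLC39A14 at 40.5 ± 8.70 CPM and SLC39A8 at 36.0 ± 3.99 CPM (SD, n = 3). SLC11A2, the endosomal iron transporter DMT1, had 13.2 ± 2.52 CPM, and STEAP3, a ferrireductase of the transferrin cycle, had 23.9 ± 4.86 CPM. The gene for transferrin itself, TF, and the second receptor TFR2 had no row. Of 5 export genes 1 was listed, the iron exporter SLC40A1 (ferroportin), with 5, 5 and 4 counts in libraries 20, 21 and 23.

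In the storage and delivery list, PCBP2 and PCBP1, RNA-binding proteins that also deliver iron to ferritin, had 278 ± 54.6 and 140 ± 24.3 CPM (SD, n = 3), and both they and NCOA4 were lower than FTL, as were 98.7% of all genes. PCBP2 was the 1 gene of the lists that differed between libraries, with 356, 336 and 527 counts in libraries 20, 21 and 23 (exact binomial adjusted p = 0.000397). Among genes that control the IRPs, FBXL5, the iron-sensing subunit of the ligase that marks IRP2 for degradation, had 59, 42 and 48 counts, or 34.2 ± 5.01 CPM (SD, n = 3). Against IREB2 its log2 ratio was -0.62, lower in 3 of 3 libraries (limma adjusted p = 0.00642). Against ACO1 FBXL5 did not pass the test (log2 ratio 0.28, 95% interval -0.17 to 0.72, limma adjusted p = 0.250). Its ligase partners SKP1, CUL1 and RBX1, which serve many other substrates, were higher than IREB2, as were 19.7% of all genes, at 564 ± 32.5, 134 ± 8.27 and 648 ± 17.0 CPM. HERC2, the ligase that acts on NCOA4, had 17.5 ± 3.47 CPM. HERC2 and FBXL5 were thus both lower than IREB2, as were 68% of all genes.

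Genes that use iron stood around or below TFRC. Of 8 heme synthesis genes tested, 2 were higher than TFRC, among them UROD at 139 ± 9.12 CPM (SD, n = 3), and 6 were lower, among them ALAS1, the first enzyme outside erythroid cells, at 33.0 ± 2.84 CPM. Of 11 genes of mitochondrial iron import and iron-sulfur cluster assembly, 3 were higher, among them LYRM4 (138 ± 4.26 CPM) and the scaffold gene ISCU (125 ± 5.51 CPM), and 8 were lower. Against TFRC, 12.8% of all genes were higher and 84% lower. In heme breakdown and transport 6 of 7 tested genes were lower, near that share of all genes, and the constitutive heme oxygenase gene HMOX2 (101 ± 10.9 CPM) did not pass the test against TFRC (log2 ratio -0.07, 95% interval -0.25 to 0.11, limma adjusted p = 0.466). The inducible HMOX1 had 12, 5 and 13 counts in libraries 20, 21 and 23.

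**Figure D5:**
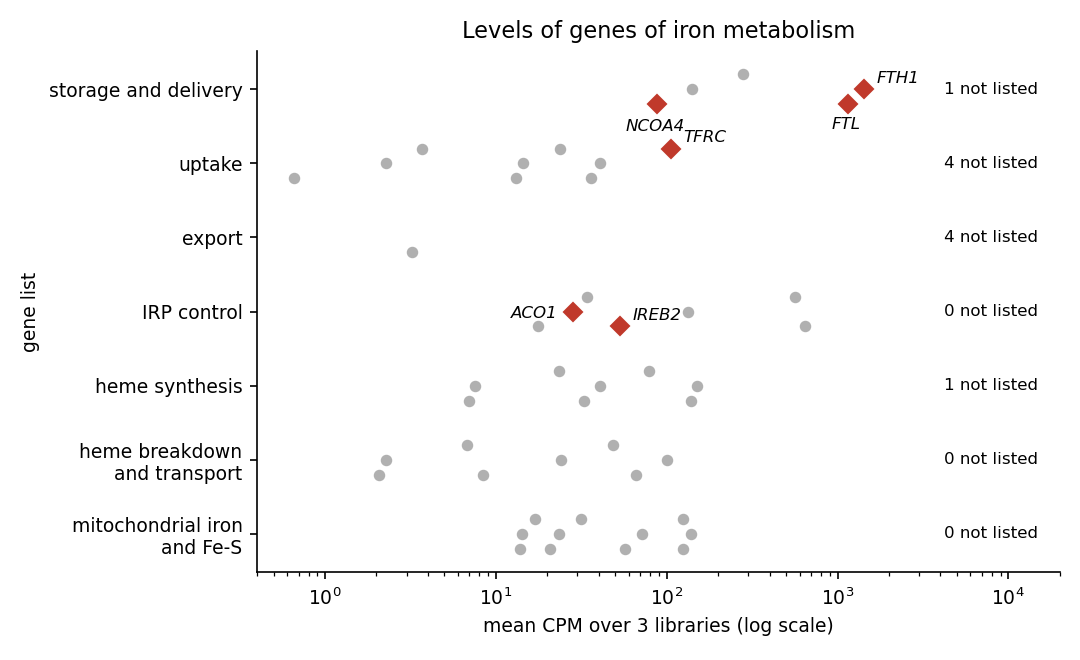
Mean CPM over 3 libraries (log scale) of the genes in 7 of the 9 iron lists (those of IRE-bearing transcripts are left out), with red diamonds for the 6 genes described here, grey points for other genes and the number of genes without a row at the right. FTH1 and FTL lie to the right of every other gene, and TFRC to the right of all other uptake genes.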

How the data were processed

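The authors deposited raw counts per gene for 3 libraries as whole numbers with no normalization. Tools named in the submitters' processing notes are STAR 2.4.0a and cutadapt 1.2.1, with hg19 (GRCh37). How genes were counted, on which annotation and strand, and whether random-base identifiers were collapsed is not given in the sources used here. Counts may therefore be reads or molecules. Exact binomial intervals cover counting error only, while the intervals of the ratios come from the limma fit. Spike rows stayed out of library sizes. CPM, exact 95% binomial intervals and the exact binomial test between libraries were computed in Python 3.11.15 with scipy 1.17.1. For each of the 6 genes as denominator, log2 ratios (pseudocount 0.5) of every gene with at least 10 pooled counts were tested with limma 3.58.1 in R 4.3.3 (one-sample, intensity trend, Benjamini-Hochberg over all tested genes, 0.05). Dispersions and scaling alternatives came from edgeR 4.0.16 and DESeq2 1.42.0. Transcript length was the median over coding transcripts of GENCODE v29, known for 91.7% of tested genes; that annotation is of GRCh38, not the authors' build, and served for names, lengths and sequences only. Named genes are the 6, listed ferritin copies, the most abundant and pathway-defining genes of each list, the 2 nearest genes in level and the markers; STEAP3, SLC11A2, TF, TFR2, FBXL5, CUL1, HERC2, ALAS1, HMOX1, EPAS1, CDC14A, CDC42BPA and BEST1 fall outside the fixed rule and were picked with their values in view. Some genes that the rule names are left out of the text. The 6 genes and all lists were chosen with earlier results of these data known.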

Additional observations from a re-analysis of the deposited data

How the results depend on the processing

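The 15 ratios were recomputed under 11 alternatives, 165 values in all, of which 154 kept their direction and their side of the threshold, 10 kept the direction only and 1 turned round; 10 pairs were the same under every alternative run. Counts per kb of transcript are a scale that 5′ tags do not need. On it the log2 ratio was 0.080 for FTH1 over FTL (limma adjusted p = 0.0528) and 0.32 for IREB2 over ACO1 (limma adjusted p = 0.203). It was -0.82 for TFRC over NCOA4 (limma adjusted p = 2.23e-08). The ferritin sum rose to 7.01 over TFRC and 7.26 over the IRP genes on the log2 scale, from the lengths alone. Without variance moderation, chosen after seeing the data, the same values lost their call for NCOA4 over IREB2 (0.74), IREB2 over ACO1 (0.89) and TFRC over NCOA4 (0.27). Without a trend TFRC over NCOA4 was also lost (0.27, limma adjusted p = 0.141); the cause was not tested. Leaving out 1 library gave 0.86 to 1.12 for TFRC over IREB2, 0.62 to 0.93 for NCOA4 over IREB2 and 0.19 to 0.37 for TFRC over NCOA4. FTH1 averaged 1372 CPM with spikes in the total, against 1425 CPM. No gene of the 6 was called between libraries under any scaling; over all genes 64 were called, 114 with DESeq2 size factors and 250 with spike totals, under which FTL in library 21 over 23 turned to -0.031 (exact binomial adjusted p = 0.965). Depth limits ACO1 most, with 36 to 44 counts per library. No paired analysis was possible because the series has 1 group, so there are no groups to pair; the ratios between genes are already taken within each library.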

Other observations

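Of other transcripts known to carry an IRE, those given here were low. EPAS1, the hypoxia factor HIF-2α, had 9.92 ± 4.03 CPM (SD, n = 3), and its transcript held no match under the strict pairing rule. SLC40A1 and ALAS2, the erythroid first enzyme of heme synthesis, held 1 match each in the 5′ untranslated region, and ALAS2 had no row. Of the genes with a 3′ element besides TFRC, CDC14A held 1 match and had 2.98 ± 0.263 CPM, while SLC11A2 and CDC42BPA (13.0 ± 2.84 CPM) held none.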
